A study of Mus musculus with 20 samples.

Results

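The cadherin and protocadherin genes of the mouse were followed in liver RNA across genotype and resection. Members were the protein-coding genes whose GENCODE M21 symbol is Cdh followed by digits or starts with Pcdh, a rule that reads gene names alone. The rule gave 92 genes among the 46603 identifiers of the count files, of which 21624 are protein coding. Of the 92, 35 stand outside the protocadherin clusters (5 type I and 13 type II classical cadherins, 5 atypical cadherins and 12 non-clustered protocadherins). The other 57 are the 14 alpha, 22 beta and 21 gamma genes of the clustered protocadherins, all on chromosome 18. A pair of the alpha identifiers carries the same symbol, Pcdha11.

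Poly(A) RNA was sequenced from 20 liver samples of male mice aged 2 months, in 4 groups of 5. Wild-type (WT) mice were C57BL/6J animals bought from a vendor, and EedHepKO mice carried a Cre transgene under the albumin promoter together with Eed alleles whose exons 3 and 6 are flanked by loxP sites. EED is a core subunit of polycomb repressive complex 2 (PRC2), which methylates histone H3 at repressed genes, and the albumin promoter is known for driving Cre in hepatocytes. Which other cells of these livers kept Eed was not tested. Baseline samples were lobes 1, 2 and 3, taken at partial hepatectomy (PHx), and the samples after PHx were lobes 4, 5 and 6, collected at 30 h (1 mouse per genotype), 40 h (2 per genotype) or 48 h (2 per genotype). WT mice bore no floxed allele or Cre, so genotype cannot be told apart from colony of origin, and the response to PHx cannot be told apart from lobe. Below, WT libraries are numbered 1 to 5 and EedHepKO libraries 7, 8, 10, 11 and 12, after the mouse numbers in the labels, and values per library follow that order. The title of 1 WT baseline library has no mouse number, and that library was given the number 1.

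Cadherins are membrane proteins whose extracellular repeats bind calcium and, in the classical types, hold neighbouring cells together by binding like molecules on the next cell, while the cytoplasmic tail binds beta-catenin and p120-catenin and, through alpha-catenin, actin. Hepatocytes are known for having both E-cadherin (Cdh1) and N-cadherin (Cdh2), bile duct cells for E-cadherin, and endothelial cells for VE-cadherin (Cdh5). Protocadherins have similar repeats with other tails. The clustered ones are best known from neurons, where each alpha or gamma gene joins a variable first exon, with a promoter of its own, to constant exons shared by the cluster.

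Total counts ran from 21634890 to 30461351 per library. Levels are given in CPM, counts per 1000000 of a library's total after TMM scaling, and levels of different genes are compared as CPM per kb of exon. Eed, which checks the genotype, averaged 16.8 ± 1.09 CPM (SD over 5 mice) before PHx and 18.4 ± 3.98 CPM after it in WT, against 5.64 ± 1.44 and 4.62 ± 1.14 CPM in EedHepKO. It was lower in EedHepKO by a log2 of -1.57 (edgeR adjusted p = 6.07e-05) before PHx and -1.99 (adjusted p = 4.39e-06) after it. The hepatocyte genes Alb, Ttr, Apoa1, Hnf4a, Cps1 and Tat summed to 112900 to 132700 CPM in WT at baseline, 65580 to 114400 in WT after PHx, 71910 to 96600 in EedHepKO at baseline and 37190 to 88640 in EedHepKO after PHx. Of these 6, Apoa1 was called lower in EedHepKO at both stages, 2 were lower at baseline and 3 after PHx at an unadjusted p under 0.05, and 1 and 2 by DESeq2. Their median log2 fold change was -0.55 at baseline and -0.58 after PHx. The macrophage genes Adgre1, Clec4f, Cd68, Marco and Vsig4 summed to 74.2 to 128, 51.3 to 206, 168 to 217 and 44.7 to 210 CPM in the same order, with 1 of 5 called higher in EedHepKO at baseline (Cd68) and 0 after PHx by edgeR, at an unadjusted p under 0.05 or by DESeq2. Their part in the values of the members was not tested. These are whole pieces of liver, so fewer cells of a type and less RNA per cell cannot be told apart.

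A few genes made up most of the family's RNA. Cdh1, Cdh2, Cdh5 and Pcdh1 together held 88.7% to 96.4% of all member counts in each library. At the other end, 14 members had no count in any library: 10 alpha genes, Cdh7, Cdh8, Cdh12 and Pcdh8. The remaining members lay between, most of them near the limit of what this depth can show. Counting a member as detected when its counts over the 5 libraries of a group exceeded 3, the number that a count of 0 still allows, 41 of 92 were detected in WT at baseline, 54 in WT after PHx, 62 in EedHepKO at baseline and 71 in EedHepKO after PHx. The same rule took in 64.5%, 67.5%, 69.8% and 74.0% of the 21624 protein-coding genes in that order. The TMM-scaled library sizes, on which CPM rests, differed between the groups and came to 98400000, 129500000, 128200000 and 162200000 summed over the 5 libraries and rounded. With 1 floor of 0.0305 CPM for all groups, an alternative chosen after seeing the data, 41, 54, 62 and 70 members were detected, beside 64.5%, 67.5%, 69.8% and 73.2% of protein-coding genes.

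The classes differed in how many of their genes were detected. Of the 22 beta genes 10 were detected in WT at baseline, 15 in WT after PHx, 17 in EedHepKO at baseline and 19 in EedHepKO after PHx. Of the 21 gamma genes the numbers were 14, 19, 20 and 20 in the same order. Of the 13 type II genes they were 6, 5, 7 and 10, of the 12 non-clustered protocadherins 5, 7, 10 and 10, and of the 5 atypical cadherins 1, 3, 2 and 5. All 5 type I genes were detected in each group, and the alpha cluster stayed at 0, 0, 1 and 2 of 14.

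**Figure D1:**
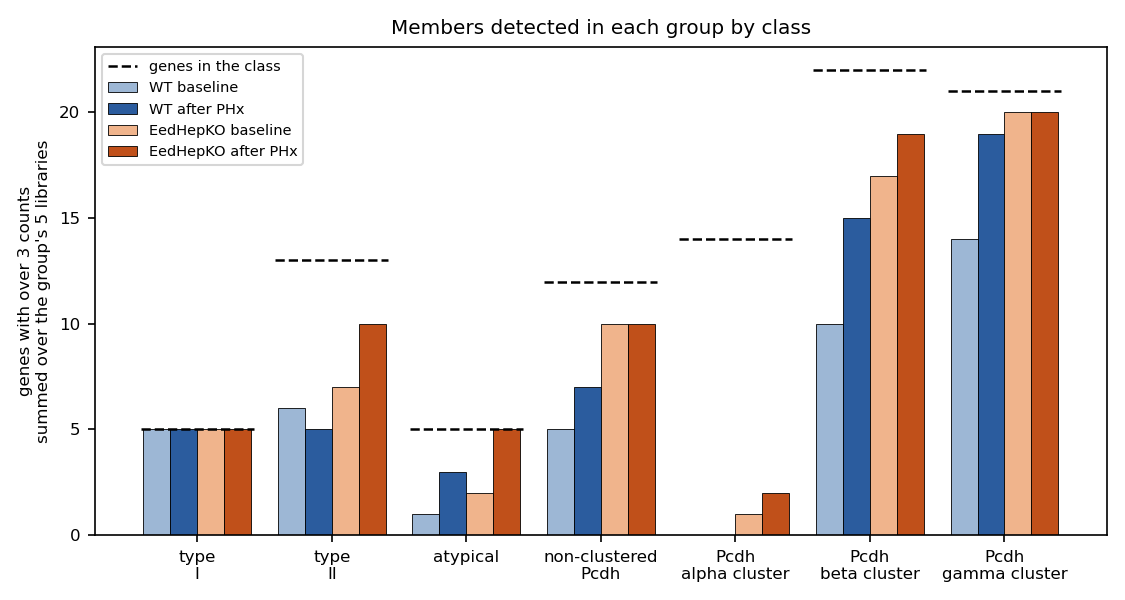
Number of member genes with more than 3 counts summed over the 5 libraries of a group (y axis) for each class of cadherin or protocadherin (x axis), 1 bar per group; dashed lines give the number of genes in the class. The beta bars go from 10 in WT at baseline to 19 in EedHepKO after PHx, of 22 genes, while type I is at 5 of 5 throughout.

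Only 22 of the 92 members had enough counts to pass the low-count filter and be tested, and a gene that passed through 1 high group alone had to differ, so shares of the tested genes are not shares of the family. In EedHepKO against WT at baseline 5 members were called higher (edgeR adjusted p under 0.05), namely Pcdhga7, Pcdhgc3, Cdh5, Pcdhb22 and Pcdh20, and 0 lower (0 also at an unadjusted p under 0.05 and by DESeq2), where 11.1% of all 14661 genes tested were called higher and 4.89% lower. After PHx 8 were called higher (Pcdhgc3, Pcdhga7, Pcdh7, Pcdh1, Cdh1, Cdh17, Pcdh20 and Cdh5) and 1 lower (Cdh2), against 16% and 8.20% of all genes. With scaling by library size alone, which moves the median log2 fold change of all genes up by 0.478 at baseline and 0.379 after PHx, the calls were 11 higher and 0 lower at baseline (24% and 0.771% of all genes), and 12 higher and 0 lower after PHx (26.6% and 2.02%). Without the low-count filter, where 78 members were tested, 4 were called higher and 0 lower at baseline (6.30% and 1.35% of 25585 genes), and 12 higher and 1 lower after PHx (10.3% and 3.72%). Of the tested members 20 of 22 had a positive log2 fold change at each stage. Their medians were 0.69 at baseline and 1.05 after PHx, beside -0.03 and -0.01 for all genes.

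Between the stages, 2 members were called in WT and 5 in EedHepKO. In WT 2 were called higher after PHx (Cdh24 and Pcdh9) and 0 lower (2 at an unadjusted p under 0.05, 0 by DESeq2), where 11.4% of all genes were called higher and 8.68% lower. In EedHepKO 3 were called higher (Pcdh7, Cdh1 and Cdh17) and 2 lower (Cdh2 and Pcdh12), where 17.5% and 12.1% of all genes were called, and 5 higher and 1 lower with scaling by library size alone (27.7% and 6.55%). The test of the difference between these responses called 0 members in either direction, with 2 higher and 0 lower at an unadjusted p under 0.05, and it called 0.164% of all genes higher and 0.225% lower. DESeq2 called 1 member there, Pcdh1, and gave no adjusted p to 7 of the 22. The genotype comparisons and the stage comparisons share their libraries, so a gene called in several of them was not found independently in each.

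**Figure D2:**
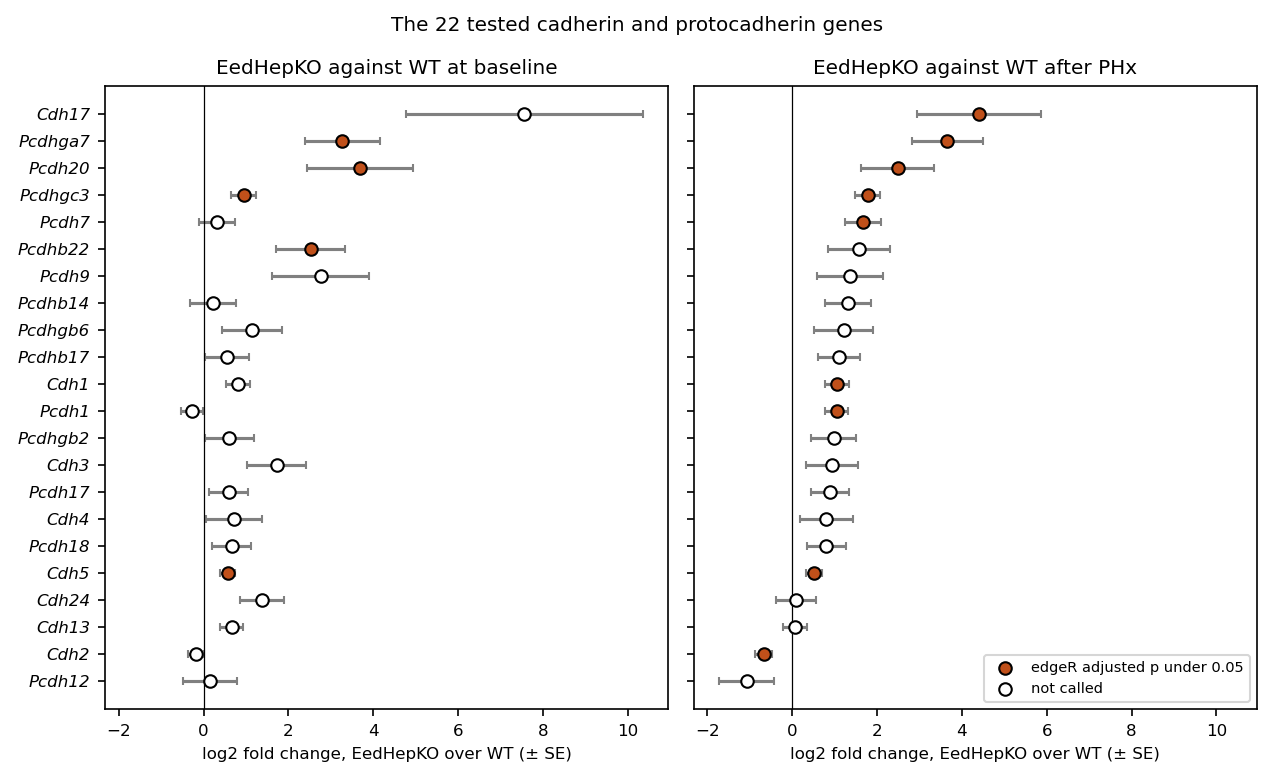
Log2 fold change of EedHepKO over WT (x axis, error bars ± SE) for the 22 tested members (y axis) at baseline (left) and after PHx (right); filled points have an edgeR adjusted p under 0.05. Most points lie to the right of 0, Cdh2 falls to the left after PHx, and the Cdh17 value at baseline depends on the prior count because no WT library has a count.

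Among the type I cadherins, Cdh1 and Cdh2 parted. Cdh1 (E-cadherin, ENSMUSG00000000303, mm10 chromosome 8, 106603351 to 106670246) had 90.6, 89.9, 83.7, 106 and 88.35 CPM in the WT libraries at baseline and 175, 126, 191, 175 and 142 CPM in EedHepKO. Every EedHepKO library at baseline was above every WT library. After PHx the WT libraries had 82.2, 191, 124, 201 and 88.6 CPM, and the EedHepKO libraries 184, 386, 144, 422 and 298 CPM. WT libraries 2 and 4 overlapped EedHepKO libraries 7 and 10 at this stage, while EedHepKO libraries 8, 11 and 12 lay above all WT libraries.

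Cdh1 was higher in EedHepKO after PHx (log2 fold change 1.06, SE 0.28, edgeR adjusted p = 0.00999), a call that missed the threshold when the fit held only the 10 libraries compared (adjusted p = 0.0942). At baseline its log2 difference was 0.82 (SE 0.28) with an adjusted p of 0.0532, on the other side of the threshold in that smaller fit (0.000149), in DESeq2 (0.0247), with library-size scaling (0.00572) and without EedHepKO library 8 (0.0494). Within EedHepKO it rose after PHx by a log2 of 0.83 (SE 0.28, adjusted p = 0.0344). That rise was lost with the mouse as a block (0.73, adjusted p = 0.0944), without the low-count filter (0.0534), in the fit of the 10 libraries compared (0.0652) and in 7 of the 10 fits that left out 1 library, being kept without baseline library 10 or without library 7 or 10 after PHx (adjusted p 0.00669 to 0.0968 over the 10). In WT the stage difference had the same sign (0.58, adjusted p = 0.151, and 0.93, adjusted p = 0.034, with library-size scaling), and the difference between the responses was 0.24 (adjusted p = 0.842).

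Cdh2 (N-cadherin, chromosome 18) went the other way. Its WT libraries had 140, 104, 131, 139 and 118 CPM at baseline and 104, 85.0, 75.2, 74.5 and 111 CPM after PHx. Its EedHepKO libraries had 97.1, 109, 115, 122 and 119 CPM at baseline, within the WT range or just under it, and 34.1, 58.9, 74.3, 70.0 and 43.65 CPM after PHx. After PHx every EedHepKO library was below every WT library, the closest pair being 74.3 and 74.5 CPM.

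Cdh2 fell in EedHepKO from baseline to after PHx (log2 fold change -1.0, SE 0.19, edgeR adjusted p = 0.00166), with no overlap between the stages and under every alternative run. It was lower in EedHepKO than in WT after PHx (-0.68, SE 0.19, adjusted p = 0.0129). That genotype difference held without any 1 library, but was -0.28 (adjusted p = 0.379) with library-size scaling and had an adjusted p of 0.119 when only the 10 libraries compared were fitted. At baseline the difference was -0.17 (SE 0.19, adjusted p = 0.583), and in WT the stage difference was -0.49 (SE 0.19, adjusted p = 0.0713).

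The ratio of Cdh1 to Cdh2 per kb within a library needs no scaling between libraries. It was 1.29 ± 0.16 (SD, n = 5) in WT at baseline, 2.88 ± 1.51 in WT after PHx, 2.56 ± 0.50 in EedHepKO at baseline and 9.44 ± 3.50 in EedHepKO after PHx. In the last group libraries 7, 8, 11 and 12 had ratios of 9.53, 11.6, 10.6 and 12.1, and library 10 stood at 3.41, inside the WT range of 1.39 to 4.76 after PHx. At baseline the lowest EedHepKO ratio (2.05) was above the highest WT ratio (1.52). Between libraries of the same number the ratio was always higher after PHx. It went from 2.925 to 3.41 in EedHepKO library 10 and from 1.32 to 1.41 in WT library 5. In bulk liver the ratio shows unequal change, not which of the genes changed.

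**Figure D3:**
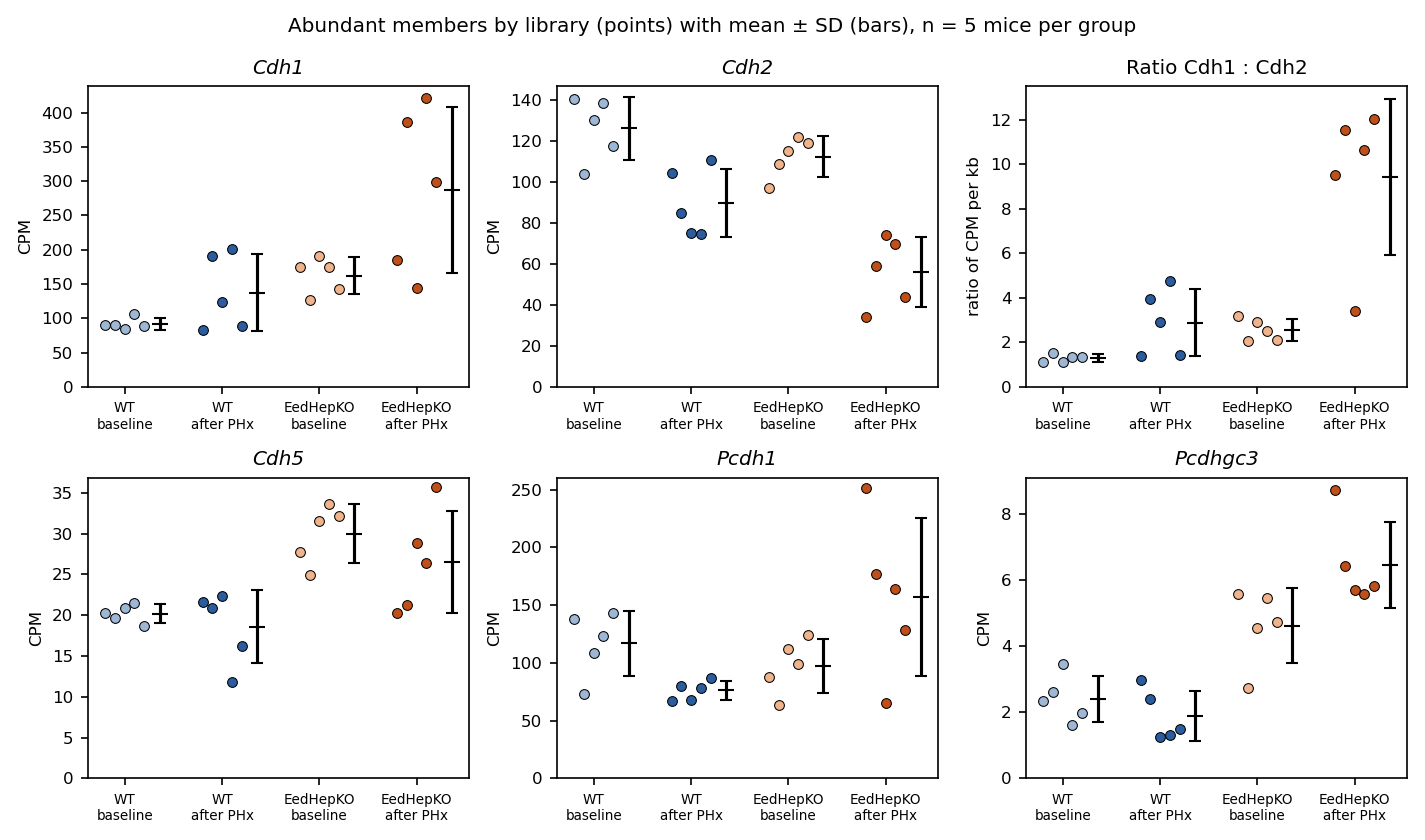
CPM per library (y axes) of Cdh1, Cdh2, Cdh5, Pcdh1 and Pcdhgc3 and the ratio of Cdh1 to Cdh2 per kb, for the 4 groups (x axes); points are libraries and bars the mean ± SD of 5 mice. In EedHepKO after PHx Cdh1 averages 287 CPM and Cdh2 56.2 CPM, and library 10, the third point, has the lowest Cdh1 and the highest Cdh2 of that group.

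The remaining type I genes were scarce. P-cadherin (Cdh3) had 0.148 ± 0.143 CPM in WT at baseline and 0.535 ± 0.307, 0.486 ± 0.291 and 1.03 ± 0.30 CPM in WT after PHx, EedHepKO at baseline and EedHepKO after PHx. Its baseline difference between genotypes was not called by edgeR (log2 1.72, adjusted p = 0.0957), but was by DESeq2 (1.79, adjusted p = 0.0461) and with library-size scaling (0.0269). The same held for its stage difference in WT (1.85, adjusted p = 0.0634; DESeq2 0.0253, library-size scaling 0.0237), which also passed without WT library 1 at baseline (0.046) or 2 after PHx (0.0242). R-cadherin (Cdh4) had 0.348 ± 0.361, 0.935 ± 0.765, 0.583 ± 0.222 and 1.63 ± 0.75 CPM in the same order. Its stage difference in EedHepKO (1.47, edgeR adjusted p = 0.0854) passed with library-size scaling (0.0463), in the fit of the 10 libraries compared (0.0435) and without library 10 after PHx (0.0439), and that in WT (adjusted p = 0.146) without baseline library 5 (0.044). M-cadherin (Cdh15), the cadherin of muscle, did not pass the filter and had 20, 36, 16 and 39 counts per group.

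Several genes outside the family were measured beside Cdh1. The bile duct markers Epcam, Krt7, Krt19, Sox9, Spp1 and Cftr summed to 23.3 to 58.2 CPM in WT at baseline, 20.97 to 239 CPM in WT after PHx, 55.5 to 359 CPM in EedHepKO at baseline and 120 to 562 CPM in EedHepKO after PHx. Of the 5 of these that were tested, 1 was called higher in EedHepKO at baseline (Spp1) and 4 after PHx (Epcam, Krt7, Krt19 and Sox9). At an unadjusted p under 0.05 the numbers were 4 and 5, the same as by DESeq2, and the median log2 fold change was 1.59 at baseline and 2.84 after PHx. Their part in the Cdh1 and Cdh17 values was not tested. Among the transcription factors known as repressors of Cdh1, 5 of 6 were tested. At an unadjusted p under 0.05, 2 were higher in EedHepKO and 1 lower at baseline, and 3 higher and 1 lower after PHx. By DESeq2 1 was higher and 0 lower at baseline, and 3 higher and 1 lower after PHx. By edgeR 11.1% of all genes were called higher and 4.89% lower at baseline, and 16% and 8.20% after PHx. Twist1 was called higher in EedHepKO at baseline (2.66 against 0.490 CPM, log2 fold change 2.44, SE 0.62, edgeR adjusted p = 0.0105) and after PHx (5.02 against 0.150 CPM, 5.03, SE 0.70, adjusted p = 4.51e-05), and Zeb1 lower after PHx (7.74 against 15.7 CPM, -1.02, SE 0.19, adjusted p = 0.000587).

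RNA was also measured for proteins that bind cadherin tails. Of 15 catenins and adaptors 12 were tested, and 2 were called higher in EedHepKO at baseline (Jup and Pkp1), where 11.1% of all genes were called higher. After PHx 5 were called higher (Ctnnal1, Jup, Arvcf, Pkp1 and Pkp3) and 1 lower (Pkp4), where 16% and 8.20% of all genes were called, with a median log2 fold change of 0.51 beside -0.01 for all genes. Jup, encoding plakoglobin, the relative of beta-catenin that joins both adherens junctions and desmosomes, had 117 CPM in EedHepKO and 43.0 in WT after PHx (log2 fold change 1.45, SE 0.23, edgeR adjusted p = 0.000187). The core catenins were not called between genotypes at either stage. After PHx the log2 difference was 0.05 (SE 0.28, adjusted p = 0.918) for beta-catenin (Ctnnb1), 0.44 (SE 0.18, adjusted p = 0.0896) for alpha-catenin (Ctnna1) and 0.10 (SE 0.23, adjusted p = 0.781) for p120-catenin (Ctnnd1).

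Of the type II cadherins, Cdh5 was the abundant one. Cdh5 (VE-cadherin, the cadherin of endothelial junctions, ENSMUSG00000031871, mm10 chromosome 8, 104101625 to 104144511) had 20.3, 19.65, 20.9, 21.55 and 18.6 CPM in WT at baseline and 27.8, 24.9, 31.5, 33.65 and 32.2 CPM in EedHepKO, with no overlap. After PHx the WT libraries had 21.6, 20.9, 22.3, 11.8 and 16.2 CPM and the EedHepKO libraries 20.3, 21.3, 28.8, 26.5 and 35.7 CPM, so that EedHepKO libraries 7 and 8 lay within the WT range.

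Cdh5 was called higher in EedHepKO at both stages, by a log2 of 0.57 before PHx (SE 0.18, edgeR adjusted p = 0.0376) and of 0.51 afterwards (SE 0.18, adjusted p = 0.0446). Neither call was firm. At baseline it was kept without EedHepKO library 7 or 8 and lost without any other single library (adjusted p 0.0315 to 0.0836) and without the low-count filter (0.0578). After PHx it was lost without WT library 4 or 5 or EedHepKO library 10, 11 or 12 (0.0311 to 0.125 over the 10 fits), in the fit of only the 10 libraries compared (0.207) and without the low-count filter (0.102). Of 6 other endothelial genes (Pecam1, Kdr, Stab2, Lyve1, Tek and Clec4g) 0 were called between genotypes at either stage by edgeR or by DESeq2, with 1 at an unadjusted p under 0.05 at baseline and 0 after PHx. Their sum ran from 141 to 169 CPM in WT and 164 to 196 CPM in EedHepKO at baseline, and from 70.2 to 131 and 77.5 to 149 CPM after PHx.

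Cdh24, the other type II gene that could be tested, was called higher after PHx in WT (log2 fold change 1.60, SE 0.52, edgeR adjusted p = 0.0355). The WT libraries had 0.195, 0.150, 0.154, 0.229 and 0.0917 CPM at baseline and 0.131, 0.348, 0.533, 0.922 and 0.584 CPM after PHx, with library 1 after PHx inside the baseline range. In EedHepKO the levels were 0.431 ± 0.219 and 0.534 ± 0.228 CPM at the same stages, and the baseline difference between genotypes (1.38, adjusted p = 0.0783) passed with library-size scaling (0.0206), in the fit of 10 libraries (0.0415) and without EedHepKO library 8 (0.0472). The WT call between stages was lost with the mouse as a block (adjusted p = 0.0681), without the low-count filter (0.0735), in the fit of the 10 libraries compared (0.0527) and in 6 of 10 fits that left out 1 library (0.0129 to 0.0927), kept without baseline library 4 or without library 1, 2 or 5 after PHx.

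The 11 type II genes that did not pass the filter were near 0 in WT. Cdh22 had 0 counts in both WT groups, 2 counts in EedHepKO at baseline and 64 in EedHepKO after PHx. With counts pooled over the group and 3 counts in place of 0, this is at least 17.04-fold higher than in WT after PHx. Those 64 counts came from 3 libraries, with 0.988 CPM in library 8, 0.5003 in library 11 and 0.0473 in library 12. Cdh10 had 17 counts in EedHepKO after PHx and 0 in WT after PHx, at least 4.53-fold higher, and 16 of them were in library 8. Cdh6 (K-cadherin, known from the developing kidney) had 4, 9, 24 and 59 counts in WT at baseline, WT after PHx, EedHepKO at baseline and EedHepKO after PHx, and Cdh19 5, 1, 23 and 38. OB-cadherin (Cdh11), a cadherin of mesenchymal cells, had 5, 21, 16 and 44 counts. Beside it, the stellate cell and fibroblast genes Lrat, Des, Pdgfrb, Col1a1, Dcn and Reln summed to 139 to 219, 124 to 214, 356 to 396 and 231 to 421 CPM in the same order, with 4 of 6 called higher in EedHepKO at baseline and 2 after PHx, and their part in the values of Cdh11 was not tested. Cdh18 was the exception, with 18, 11, 11 and 12 counts. None of these passed the low-count filter. In the edgeR fit without it, Cdh22 (adjusted p = 0.0305) and Cdh19 (adjusted p = 0.0169) were called higher in EedHepKO after PHx, and Cdh10, Cdh6, Cdh11 and Cdh18 were not called. That fit also called Cdh9 higher in EedHepKO at baseline (adjusted p = 0.0369) and after PHx (adjusted p = 0.022).

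Among the atypical cadherins the widest range was that of Cdh17. Cdh17 (liver-intestine cadherin, which lacks the catenin-binding tail and is known from intestinal epithelium, ENSMUSG00000028217, mm10 chromosome 4, 11758147 to 11817895) had 0 counts in all 5 WT libraries at baseline. Its EedHepKO libraries at baseline had 3.12, 1.01, 0.172, 0.125 and 0.0470 CPM, 127 counts in all, 94 of them in 1 library. Against 3 counts over the WT group the 127 pooled counts are at least 32.5-fold higher. The fitted difference had an edgeR adjusted p of 0.076, and was called with library-size scaling (0.0456), in the fit of the 10 libraries compared (0.0145) and by DESeq2 (0.00339).

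After PHx, Cdh17 had 0, 0.174, 3.65, 0.532 and 0 CPM in WT and 14.2, 46.65, 2.21, 29.3 and 0.237 CPM in EedHepKO. EedHepKO libraries 7, 8 and 11 were above all WT libraries, and libraries 10 and 12 fell below WT library 3. It was called higher in EedHepKO than in WT after PHx (log2 fold change 4.40, SE 1.47, edgeR adjusted p = 0.0388) and higher in EedHepKO after PHx than at baseline (4.34, SE 1.46, adjusted p = 0.0357). The genotype call was kept without WT library 3 or EedHepKO library 10 or 12 and lost without any other single library (0.0105 to 0.0966), as well as in the fit of the 10 libraries compared (0.0932). The stage call in EedHepKO was kept without baseline library 7 or without library 10 or 12 after PHx (0.0207 to 0.0907). In WT the counts went from 0 at baseline to 115 after PHx, 96 of them in library 3, at least 29.1-fold higher. That stage difference had an edgeR adjusted p of 0.0689 (0.0501 to 0.239 over the 10 fits without 1 library), and was called with the mouse as a block (0.0323), with library-size scaling (0.0486) and by DESeq2 (0.00324). Per kb, Cdh17 in EedHepKO after PHx averaged 4.14 CPM per kb, beside 62.7 for Cdh1.

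The gut and kidney markers Umod, Slc12a1, Lgals4, Vil1, Cdx2 and Fabp2 did not move as one. Vil1, encoding the microvillus protein villin, was called higher in EedHepKO at baseline (4.26 against 0.138 CPM) and after PHx (16.1 against 0.0902 CPM), whereas Fabp2 was called lower at baseline and Lgals4 lower after PHx. Slc12a1 had no count in any group. Cdx2, the intestinal transcription factor, had none in 3 of the 4 groups, EedHepKO after PHx being the exception. The 6 genes summed to 67.6 to 75.6, 87.7 to 154, 33.65 to 50.6 and 54.3 to 139 CPM in WT at baseline, WT after PHx, EedHepKO at baseline and EedHepKO after PHx.

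The other atypical genes were T-cadherin (Cdh13), which is held to the membrane by a lipid anchor, Cdh16 (the kidney cadherin and the closest relative of Cdh17), Cdh23 and Cdh26. Cdh13 had 1.79 ± 0.50 CPM in WT and 2.84 ± 0.47 CPM in EedHepKO at baseline (log2 difference 0.66, SE 0.28, edgeR adjusted p = 0.111), and 2.16 ± 0.58 and 2.25 ± 0.58 CPM after PHx. Its baseline difference was called with library-size scaling (adjusted p = 0.00809), in the fit of 10 libraries (0.0398) and by DESeq2 (0.0498). Cdh16 had 0 counts in all WT libraries, 1 in EedHepKO at baseline and 11 in EedHepKO after PHx, 10 of them in library 8, at least 2.93-fold higher than in WT after PHx.

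**Figure D4:**
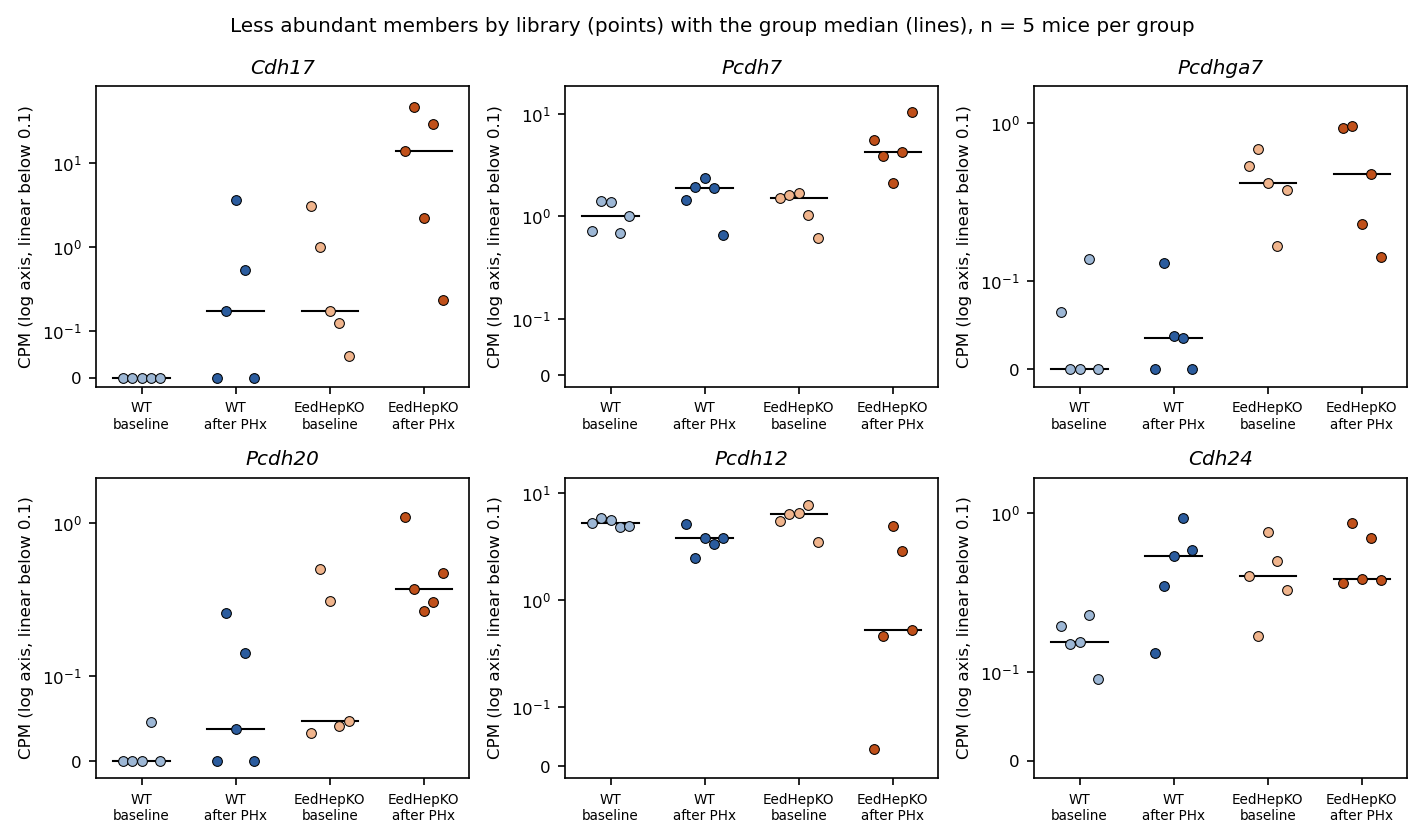
CPM per library (y axes, logarithmic above 0.1 CPM and linear below) of Cdh17, Pcdh7, Pcdhga7, Pcdh20, Pcdh12 and Cdh24 in the 4 groups (x axes); points are libraries and lines the group medians of 5 mice. Cdh17 is at 0 in all WT libraries at baseline and reaches 46.65 CPM in EedHepKO after PHx, while Pcdh12 spans 0.0300 to 4.96 CPM in that same group.

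Among the non-clustered protocadherins, 7 of 12 were tested. Pcdh1, an adhesion molecule of epithelia, was by far the most abundant, at 13.3 ± 3.19 CPM per kb in WT at baseline, next to 15.7 ± 1.90 for Cdh2 and 20.0 ± 1.82 for Cdh1. Its WT libraries had 138, 72.9, 109, 123 and 143 CPM at baseline and 67.3, 79.85, 68.2, 78.4 and 86.9 CPM after PHx. Its EedHepKO libraries had 87.7, 63.4, 112, 98.8 and 124 CPM at baseline and 251, 177, 65.0, 164 and 128 CPM after PHx. EedHepKO library 10 after PHx was the lowest of all 10 libraries at that stage, and the other 4 were above every WT library.

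Pcdh1 was called higher in EedHepKO after PHx (log2 fold change 1.05, SE 0.27, edgeR adjusted p = 0.00776), in all 10 fits without 1 library and under every other alternative run. At baseline its log2 difference was -0.27 (SE 0.27, adjusted p = 0.527). The stage difference in EedHepKO (0.69, adjusted p = 0.0556) passed with library-size scaling (0.0146), by DESeq2 (0.0337) and without library 10 after PHx (0.00437). In WT the stage difference was -0.62 (adjusted p = 0.105), called lower in the fit of 10 libraries (0.0347). The difference between the responses was 1.32 (SE 0.38) with an adjusted p of 0.138, and passed the threshold in DESeq2 (1.30, adjusted p = 0.041) and without EedHepKO library 10 after PHx (1.51, adjusted p = 0.0116).

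Pcdh7 had 0.715, 1.40, 1.39, 0.688 and 1.01 CPM in WT at baseline and 1.44, 1.91, 2.36, 1.88 and 0.652 CPM in WT after PHx. In EedHepKO it had 1.49, 1.61, 1.69, 1.04 and 0.610 CPM at baseline and 5.54, 3.91, 2.14, 4.28 and 10.4 CPM after PHx. Every library of the last group was above every EedHepKO library at baseline, and only library 10 fell below the highest WT library after PHx. Pcdh7 (ENSMUSG00000029108, mm10 chromosome 5, 57717967 to 58133230) was called higher in EedHepKO than in WT after PHx (log2 fold change 1.67, SE 0.42, edgeR adjusted p = 0.00673) and rose within EedHepKO (2.02, SE 0.43, adjusted p = 0.00289). Both calls held under every alternative run. A non-coding gene on the other strand, 4932441J04Rik, overlaps its exons and did not exceed 0.152 CPM in any library.

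Pcdh12, known from endothelial cells, moved the other way and unevenly. It had 5.33, 5.85, 5.66, 4.82 and 4.95 CPM in WT at baseline, 5.19, 2.48, 3.84, 3.33 and 3.85 CPM in WT after PHx, and 5.54, 6.38, 6.48, 7.81 and 3.47 CPM in EedHepKO at baseline. After PHx the EedHepKO libraries had 0.0300, 0.461, 4.96, 2.89 and 0.521 CPM, so that libraries 7, 8 and 12 were below all other libraries and library 10 was not. The fall within EedHepKO was at the threshold (log2 fold change -1.75, SE 0.65, edgeR adjusted p = 0.0498), kept only without library 10 or 11 after PHx (0.00419 to 0.11 over the 10 fits) and lost in the fit of 10 libraries (0.153), without the low-count filter (0.0639) and with library-size scaling (0.086). Of the 6 other endothelial genes, Kdr was called lower after PHx in WT (log2 -1.60) and in EedHepKO (-1.63), and Lyve1 higher in EedHepKO (2.51); the median of the 6 was -0.55 in WT and -0.72 in EedHepKO, with 4 lower in EedHepKO at an unadjusted p under 0.05 and 2 by DESeq2. Their part in the Pcdh12 values was not tested. The genotype difference of Pcdh12 after PHx was -1.08 (SE 0.65, adjusted p = 0.237), -1.92 (0.0231) without EedHepKO library 10 after PHx and -2.03 (0.0386) with the hours after PHx as a term.

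Library 10 of EedHepKO after PHx, taken at 40 h, recurred in these values. Within its group it was the lowest library for 10 of the 22 tested members, Cdh1, Pcdh1, Pcdh7 and Pcdh17 among them, and the highest for 2, Cdh2 and Pcdh12. Library 11, also from 40 h, did not share this position, with the highest Cdh1 of the group.

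Pcdh20 and Pcdh9 were scarce. Pcdh20 (mm10 chromosome 14, 88464743 to 88471396) had 1 count in all of WT at baseline, in library 4, and 11 in WT after PHx. Its EedHepKO libraries had 0.0332, 0.507, 0.310, 0.0415 and 0.0470 CPM at baseline, 24 counts in all, and 1.11, 0.373, 0.267, 0.306 and 0.473 CPM after PHx, all above the highest WT library (0.261 CPM). Its level was called higher in EedHepKO by a log2 of 3.70 at baseline (SE 1.25, edgeR adjusted p = 0.0486) and by 2.48 after PHx (SE 0.87, adjusted p = 0.0423). The baseline call was lost on leaving out any 1 WT library or EedHepKO library 8 or 10 (0.0391 to 0.125), and without the low-count filter (0.0633). The call after PHx was kept without WT library 2 or EedHepKO library 10 or 11 (0.0182 to 0.129), and lost with DESeq2 (0.0546), the time term (0.058), the fit of 10 libraries (0.105) and no filter (0.0836).

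Pcdh9 was called higher after PHx in WT, with 2 counts at baseline and 28 after PHx (log2 fold change 3.21, SE 1.12, edgeR adjusted p = 0.0482), and was named here after its value was seen, since its level was under the minimum for naming. The call was kept only without library 3 or 5 after PHx (0.0181 to 0.139), and lost with the mouse as a block (0.194), without the low-count filter (0.0643) and in the fit of 10 libraries (0.0797). Its baseline difference between genotypes (adjusted p = 0.104) passed with library-size scaling (0.0359) and in the fit of 10 libraries (0.0272). Pcdh17 and Pcdh18 were not called by edgeR in any comparison. The difference of Pcdh17 between genotypes after PHx (0.89, adjusted p = 0.162) passed with library-size scaling (1.35, 0.0464) and without EedHepKO library 10 (1.12, 0.0479). Pcdh17 had 0.947 ± 0.358, 1.17 ± 0.61, 1.43 ± 0.58 and 2.15 ± 1.13 CPM in WT at baseline, WT after PHx, EedHepKO at baseline and EedHepKO after PHx. Of the genes that did not pass the filter, Pcdh19 had 0, 0, 6 and 30 counts, at least 7.99-fold higher in EedHepKO than in WT after PHx and called there without the filter (adjusted p = 0.0117), and Pcdh11x 1, 3, 12 and 25 counts.

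PRC2 is known to bind promoters rich in CpG, the pair of bases C then G that DNA methylation also acts on, so the promoter windows of members that were called and of a member without counts were set side by side. RefSeq windows (GRCm38.p6, 250 bases before to 50 after the start) were found for 22 member symbols. The number of CG pairs in these 300-base windows ran from 2 to 38 with a median of 13, beside a median of 14 over the first windows of 16348 protein-coding genes. CG reads the same on both strands, and 95.2% of those windows hold at least 1. The sequences printed are the bases before the start that also lie outside the GENCODE gene, 5′ to 3′ on the gene's strand, with each CG in capitals. Pcdh7 (chr5:57717831-57717966, plus strand) and Pcdh20 (chr14:88471397-88471646, minus strand) were called between genotypes, Cdh24 (chr14:54641365-54641614, minus strand) was called between stages in WT, and Cdh8 (chr8:99416472-99416721, minus strand) had no count in any library.
Pcdh7: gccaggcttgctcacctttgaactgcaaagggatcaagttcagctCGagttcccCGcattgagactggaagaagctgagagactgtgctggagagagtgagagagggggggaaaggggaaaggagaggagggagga
Pcdh20: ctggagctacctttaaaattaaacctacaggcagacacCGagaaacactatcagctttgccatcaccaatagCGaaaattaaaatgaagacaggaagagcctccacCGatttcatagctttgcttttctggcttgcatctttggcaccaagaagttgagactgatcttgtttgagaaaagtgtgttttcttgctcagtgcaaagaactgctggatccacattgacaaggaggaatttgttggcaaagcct
Cdh24: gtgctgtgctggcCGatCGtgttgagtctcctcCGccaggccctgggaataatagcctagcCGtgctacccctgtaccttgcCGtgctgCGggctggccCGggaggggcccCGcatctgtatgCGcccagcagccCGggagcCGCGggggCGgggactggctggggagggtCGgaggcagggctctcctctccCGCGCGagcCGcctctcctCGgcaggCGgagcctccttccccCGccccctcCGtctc
Cdh8: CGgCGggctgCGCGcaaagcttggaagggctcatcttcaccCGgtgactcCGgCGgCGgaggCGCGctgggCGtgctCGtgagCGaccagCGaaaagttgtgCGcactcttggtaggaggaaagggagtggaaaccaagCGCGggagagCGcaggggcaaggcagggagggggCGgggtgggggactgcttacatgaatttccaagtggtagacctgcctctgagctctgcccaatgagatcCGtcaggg
In the full 300-base windows Pcdh20 has 4 CG pairs, and 77.0% of all promoters have as many or more. Pcdh7 has 11 (57.4% of promoters have as many), the silent Cdh8 21 (35.2%), Cdh24 30 (15.5%) and Cdh22, which had counts almost only in EedHepKO after PHx, 38 (6.4%). Of the 14 members without a count, 3 more had a window: Cdh12 with 9 pairs, Pcdh8 with 14 and Cdh7 with 18, 19 and 4 in its 3 windows. These 4 genes lay on both sides of the median of 14, and the 10 alpha genes without a count are not covered. Pcdh9, called between stages in WT, has 18 and 19 in its 2 windows. Pcdh17 and Pcdh18, tested and not called by edgeR in any comparison, have 26 (23.2% of promoters have as many) and 23 (30.2%). Histone marks and methylation were not analysed here.

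The clustered protocadherins were low as a whole, and their gamma part held most of their RNA. Summed over the cluster, the gamma genes came to 3.88 ± 0.65 CPM (SD over 5 mice) for WT at baseline, 3.62 ± 0.85 in WT after PHx, 7.73 ± 1.62 in EedHepKO at baseline and 10.9 ± 2.45 in EedHepKO after PHx. At each stage the lowest EedHepKO library (5.11 and 8.52 CPM) was above the highest WT library (4.73 and 4.93 CPM). The beta genes summed to 1.31 ± 0.33, 1.52 ± 0.26, 2.46 ± 0.45 and 3.42 ± 1.18 CPM, again with the lowest EedHepKO library (1.99 and 2.56 CPM) above the highest WT library (1.60 and 1.86 CPM). The alpha genes summed to 0 in every WT library at baseline and to at most 0.282 CPM in any library.

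Pcdhgc3, one of the C-type genes at the end of the gamma cluster, accounted for 50.6% to 61.4% of gamma counts on average in the 4 groups. Its WT libraries had 2.34, 2.60, 3.45, 1.61 and 1.97 CPM at baseline and 2.96, 2.39, 1.26, 1.31 and 1.48 CPM after PHx. Its EedHepKO libraries had 5.58, 2.75, 4.55, 5.44 and 4.74 CPM at baseline, where only library 8 fell into the WT range, and 8.72, 6.43, 5.68, 5.59 and 5.82 CPM after PHx, all above WT. Pcdhgc3 was called higher in EedHepKO at baseline (log2 fold change 0.95, SE 0.29, edgeR adjusted p = 0.0326) and after PHx (1.78, SE 0.30, adjusted p = 0.000258). The baseline call was kept without WT library 3 or EedHepKO library 8 and lost without any other single library (0.0171 to 0.0903). The call after PHx held under every alternative run.

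Pcdhga7 was nearly silent in WT, with 4 counts at baseline and 5 after PHx over all libraries. Its EedHepKO libraries had 0.531, 0.676, 0.414, 0.166 and 0.376 CPM at baseline and 0.929, 0.944, 0.229, 0.472 and 0.142 CPM after PHx, against at most 0.138 and 0.131 CPM in a WT library, so the genotypes did not overlap at either stage. It was called higher in EedHepKO at baseline (log2 fold change 3.27, SE 0.89, edgeR adjusted p = 0.0155) and after PHx (3.66, SE 0.84, adjusted p = 0.00377), and both calls held under every alternative run. In the beta cluster, whose genes have no constant exons, Pcdhb22 was called higher at baseline (0.480 ± 0.293 against 0.0789 ± 0.0512 CPM, log2 fold change 2.52, SE 0.81, adjusted p = 0.0396). That call was kept only without EedHepKO library 8 or 12 (0.032 to 0.0955) and lost without the low-count filter (0.0642), and the gene, under the minimum level for naming, was named after its value was seen.

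Counting limits what can be said of single gamma and alpha genes. The constant exons lie in the annotation of each of them, so that 38.5% of the exon bases of Pcdhgc3 and 40.6% of those of Pcdhga7 also belong to another annotated gene on the same strand. How the authors' counting assigned reads there is not given in the sources used here. The sum over the cluster does not depend on how reads were split among the 21 members, but reads left out as ambiguous, or given to the 5 other genes annotated over the same exon bases on that strand, would be missing from it. Of those 5, Pcdhgb8 had 1, 7, 12 and 8 counts in WT at baseline, WT after PHx, EedHepKO at baseline and EedHepKO after PHx, and Gm37013, Gm37388, Gm38182 and Gm42416 had none. On the other strand, BC037039 overlaps Pcdhgc3 over 1559 of 5499 exon bases and reached at most 0.615 CPM in a library, and Gm37165 overlaps Pcdhga7 over 536 of 5217 bases and had no count.

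The groups did not overlap for 5 tested members at baseline, with all EedHepKO libraries above all WT libraries for Pcdhb22, Pcdhga7, Cdh17, Cdh1 and Cdh5, and for 0 in the other direction, where 15.6% and 12.2% of all genes tested separated in this way. After PHx all EedHepKO libraries lay above WT for 3 members (Pcdhga7, Pcdhgc3 and Pcdh20), with 7.05% of all genes, and below WT for 1 (Cdh2), with 2.97%.

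The 70 members that did not pass the filter are described by their counts pooled per group and scaled by TMM. At baseline 43 had a higher pooled CPM in EedHepKO than in WT, 10 were lower and 17 had no count at that stage. After PHx the numbers were 50, 6 and 14. Of those with a count this is 81.1% higher at baseline and 89.3% after PHx, beside 74.3% and 77.8% of all protein-coding genes that did not pass the filter, so the direction is common to low genes. On unscaled library totals the members had 48 higher and 5 lower at baseline and 53 and 3 after PHx, beside 81.8% and 83.3% of those genes. In the beta cluster 14 of 19 such genes were higher at baseline and 17 of 19 after PHx, and in the gamma cluster 15 of 17 at both stages. The fit without the filter called Pcdhb18 higher at baseline (edgeR adjusted p = 0.0122), and Pcdhga10 (0.0209) and Pcdhga2 (0.0314) after PHx. The filter put these genes here because they were low, and neighbours in a cluster share sequence.

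Of these 70, 27 reached 10 counts or more in some library, and they were picked by count, not by CPM. By CPM the highest library of the 27 was in EedHepKO after PHx for 16 (library 8 for 6 of them), in EedHepKO at baseline for 5 and in each WT group for 3. Pcdhga10 had 4, 4, 25 and 70 counts in WT at baseline, WT after PHx, EedHepKO at baseline and EedHepKO after PHx, with all of its exon bases inside other genes on either strand (44.8% on the same strand). Pcdhgb7 had 6, 14, 22 and 53 counts, Pcdhgb4 6, 11, 15 and 51, Pcdhga5 21, 9, 22 and 48, and Pcdhgc4 1, 10, 5 and 41. Among the beta genes Pcdhb7 had 5, 15, 17 and 40 counts, Pcdhb5 2, 5, 12 and 37, and Pcdhb18 0, 8, 24 and 30. Pcdhb16 had 20, 21, 25 and 35 counts, and its highest level, 0.650 CPM, was in a WT library at baseline. The rest with 10 counts in a library were Pcdhb4, Pcdhb12, Pcdhb19, Pcdhb20, Pcdhga8, Pcdhga9, Pcdhga12 and Pcdhgb5, with 16 to 33 counts in EedHepKO after PHx and 0 to 15 in WT at baseline.

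Wider cadherin relatives were measured as a fixed list of 27 genes, 12 of them tested: the Fat, Dachsous and Celsr giants, calsyntenins, cadherin-related proteins, desmosomal cadherins and Ret. At baseline 4 were called higher in EedHepKO (Fat1, Cdhr2, Cdhr5 and Clstn1) and 1 lower (Dsg2), where 11.1% and 4.89% of all genes were called, and after PHx 4 higher (Celsr2, Cdhr2, Cdhr5 and Clstn1) and 0 lower (0 also at an unadjusted p under 0.05 and by DESeq2), where 16% and 8.20% were. The median log2 fold change of the 12 was 0.04 at baseline and 0.48 after PHx, beside -0.03 and -0.01 for all genes. Cdhr2 and Cdhr5 encode the pair of adhesion proteins that link the tips of brush-border microvilli. Cdhr2 had 9.83 against 0.0535 CPM at baseline (log2 fold change 7.45, SE 0.75, edgeR adjusted p = 1.77e-06) and 13.6 against 0.0768 CPM after PHx (7.37, SE 0.71, adjusted p = 1.18e-06), and Cdhr5 168 against 69.3 CPM and 137 against 65.7 CPM. Desmoglein 2 (Dsg2) had 105 against 185 CPM at baseline (-0.82, SE 0.26, adjusted p = 0.037), and within WT it fell after PHx to 91.7 CPM (-1.02, SE 0.26, adjusted p = 0.0103). The desmoglein gene Dsg1c fell after PHx in WT from 4.54 to 0.151 CPM (-4.85, SE 0.90, adjusted p = 0.00125) and in EedHepKO from 1.11 to 0.0625 CPM (-4.13, SE 0.94, adjusted p = 0.00428). These were the 2 relatives called between stages in WT and the 1 in EedHepKO, where 8.68% and 12.1% of all genes were called lower.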

How the data were processed

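Each library's file, as deposited by the authors, lists a whole-number read count for every Ensembl identifier, not normalised. The series' design text says that FastQC 0.11.5 was used for quality checks and fastp 0.20.0 for trimming, that reads were aligned to mm10, and that only uniquely mapped reads were counted; the submitters' processing notes name Trimmomatic 0.36 for trimming instead. The aligner, counting program, strand setting and annotation release are not given in the sources used here, so reads of a gene and of a gene overlapping it on the other strand cannot be told apart. Symbols, exon lengths and overlaps came from GENCODE M21, and promoter windows from RefSeq (GRCm38.p6).

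Counts were tested with edgeR 4.0.16 (quasi-likelihood, two-sided) in R 4.3.3, with TMM scaling and filterByExpr on the 4 groups, which left 14661 genes of which 22 were members. All 20 libraries shared 1 fit with 4 group means and 5 contrasts, and p-values were adjusted by Benjamini-Hochberg over all genes tested. A gene is called at an adjusted p under 0.05. The SE of a log2 fold change was its size divided by the square root of the F statistic. Each library came from 1 mouse and 1 stage. Alternatives were library-size scaling, no filter, the 10 libraries of a comparison alone, hours after PHx as a term, each library left out in turn, DESeq2 1.42.0 and the mouse number as a block. The labels state that each mouse gave both samples; residuals of same-numbered samples correlated at -0.051 to 0.149 over 9 mice, and WT baseline library 1, whose title has no mouse number, was left out of the block with its partner.

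Members named are 10 fixed genes (Cdh1, Cdh2, Cdh5, Cdh11, Cdh13, Cdh16, Cdh17, Pcdh1, Pcdh12 and Pcdh17), called members with a mean of 0.5 CPM or more in a group of the comparison, and untested members with 10 or more counts in a library. Outside this rule, Cdh3, Cdh4, Pcdh9, Pcdh18, Pcdhb22, Cdh9, Cdh23, Cdh26, Pcdhga2 and the members without a count (Cdh7, Cdh8, Cdh12 and Pcdh8) were named after their values were seen. Members and lists were chosen with earlier results of these data known. Bounds against a count of 0 use 3 counts over the group and cover counting error of that group only. They pool counts over the libraries of a group, so a library with a large scaled size weighs more than in a mean CPM. Counting error of the other group and spread between mice are not covered. Of the marker lists, 1 is not reported here.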

Additional observations from a re-analysis of the deposited data

Results flagged for a closer look

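By Dixon's 95% criterion, single libraries stood far from the other 4 of their group in 6 of 88 groups of 5 libraries. The 88 were the 22 tested members in 4 groups. Chance alone flags about 1 group in 20 where values follow a normal distribution, a rate not checked for counts this low. A count in 1 library with 0 in the others is always flagged, and Cdh17 in WT at baseline, at 0 throughout, cannot be. Values are CPM. Pcdhgc3 was at 8.72 in EedHepKO library 7 after PHx, where the others had 5.59 to 6.43. Cdh17 was at 3.65 in WT library 3 after PHx, with 0 to 0.532 in the others. Pcdh20 was at 0.0459 in WT library 4 at baseline, a single count, with 0 in the others, and at 1.11 in EedHepKO library 7 after PHx, with 0.267 to 0.473 in the others. Pcdh18 was at 1.75 in EedHepKO library 11 after PHx, with 0.539 to 0.757 in the others. Cdh3 was at 0.996 in EedHepKO library 7 at baseline, with 0.310 to 0.465 in the others. Each of the 6 was the highest library of its group, and 3 were EedHepKO library 7, at baseline or after PHx.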

How the results depend on the processing

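The members called in EedHepKO against WT at baseline numbered 5 and went to 11 with library-size scaling, 10 with only the 10 libraries compared and 9 with DESeq2, each including the same 5 genes, to 4 without the filter (78 members tested), which shared 2 of the 5, and ran from 1 to 6 when 1 library was left out. After PHx the 9 calls became 4 with only the 10 libraries compared and 13 without the filter, which shared 7 of the 9, and ran from 6 to 11 without 1 library. In WT the 2 calls between stages became 5 with library-size scaling, 4 with DESeq2, 0 without the filter and 1 with the replicate block, which was Cdh17 in place of Cdh24 and Pcdh9, and ran from 0 to 2 without 1 library; with only the 10 libraries compared there were 2, both lower (Pcdh1 and Cdh2), so none of the genes was shared. In EedHepKO the 5 calls between stages became 3 without the filter and 4 with the replicate block, which paired samples by mouse, and ran from 2 to 7 without 1 library. The difference between the responses had 0 calls, 0 with the replicate block, 1 with DESeq2 and 0 to 1 without 1 library. Without the filter, 6.25% of 25585 genes were called higher and 3.36% lower between stages in WT, and 9.34% and 5.70% in EedHepKO. No share of all genes is given for the fits of 10 libraries, DESeq2, the replicate block or the fits without 1 library. The same holds for library-size scaling between stages in WT. Whether those counts moved with all genes was not tested. Why the counts moved between settings was not tested.

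Over 1819 refits of a single member in a single comparison, 1663 stayed on the same side of the threshold. A call was lost in 111 and gained in 45, and 0 reversed a called direction. Among the 1663, changes of direction in members without a call were not counted. At this depth 14 of 92 members have no count, and the low-count filter leaves out 70.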
